A study of Homo sapiens with 8 samples.

Results

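The mRNA of 10 plasma membrane amino acid transporters was followed in LUHMES neurons whose mitochondrial respiration and ATP synthesis were blocked. The genes were taken by name, as SLC7A1, SLC7A3, SLC7A5, SLC43A1, SLC1A4, SLC1A5, SLC38A1, SLC38A2, SLC6A9 and SLC1A3, out of 62826 genes in the deposited tables. LUHMES is a human fetal midbrain line immortalised with a v-myc transgene that tetracycline shuts off, and all 8 libraries come from cells of this 1 line, labelled wild type, differentiated for 6 days in medium with glutamine (2 mM), dbcAMP (1 mM), tetracycline (1 µg/mL) and the neurotrophic factor GDNF (2 ng/mL). The treated group received antimycin A at 25 µM, which blocks respiratory complex III, and oligomycin at 10 µM, which blocks the ATP synthase, for 8 h. The control group received the DMSO vehicle. Each group has 4 libraries, 1 for each of the differentiation numbers 2 to 5 in the sample titles, with 93.7 to 110 M estimated reads per library. The series text calls the batches independent, so the p-values measure the spread between differentiations.

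Amino acids cross the plasma membrane through carriers that differ in substrate and driving force. System A carriers pull small neutral amino acids in with sodium, and exchangers of system L and of the ASCT type trade such internal amino acids for others outside. In many cell types the transcription factor ATF4 raises the mRNA of a number of these carriers when amino acids are scarce or the integrated stress response is on. In the brain, neurons use system A to take up glutamine, a precursor of glutamate and GABA, while glycine and glutamate carriers clear transmitter from the synapse.

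All 10 genes rose in treated cells, by 0.99 to 4.84 on the log2 scale, with a median of 2.82. Across all 19785 genes tested, 27.7% were called higher by the same rule (Benjamini-Hochberg adjusted p under 0.05, edgeR), 30.2% lower and 57.9% in either direction, and the median change was -0.02. For each of the 10, every treated library lay above every vehicle library, a separation that 25.3% of all genes tested also showed. For 9 of the 10 the called rise was at least 1 on the log2 scale, against 8.79% of all genes tested. The 10 were chosen with earlier results of these data known, so these shares describe them and are no test of the group. These are bulk RNA levels, in which fewer cells of a type and less RNA per cell cannot be told apart. Levels below are in TPM, which corrects for transcript length and so allows genes to be set side by side, and per-library values run in the order of differentiation numbers 2 to 5. Fold changes are log2 of treated over vehicle from TMM-scaled counts, with a standard error that restates the test.

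**Figure D1:**
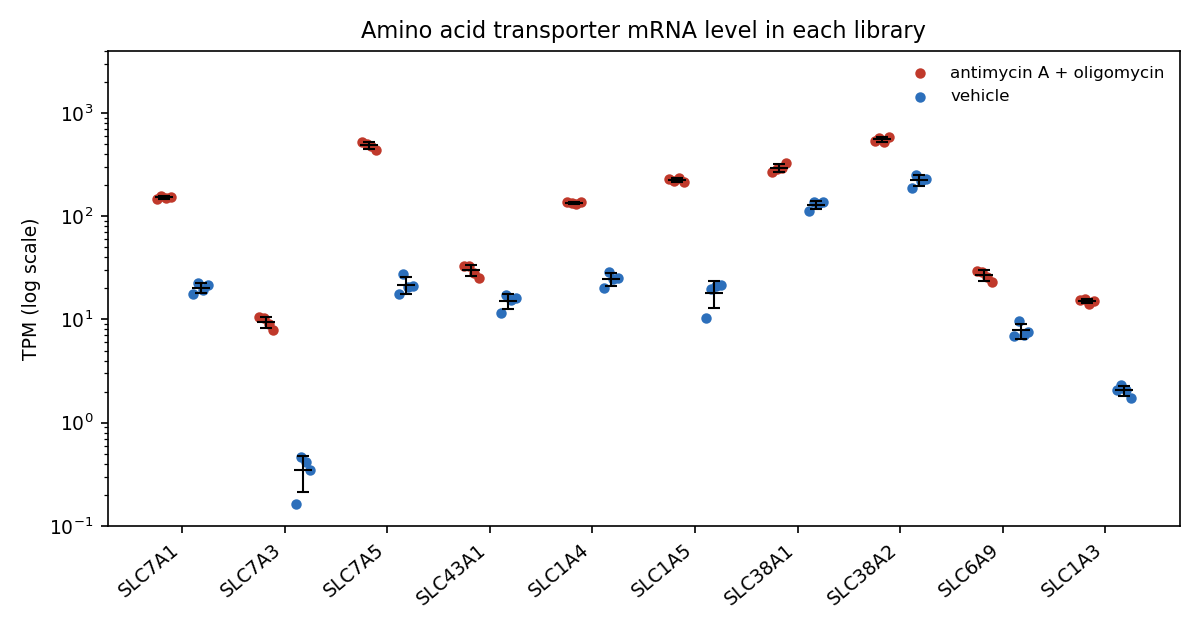
TPM of the 10 transporters in each library on a log scale, with treated libraries in red to the left of vehicle libraries in blue; points are libraries and black bars are mean ± SD (n = 4). The groups do not overlap for any of the 10, and the gap is widest for SLC7A3, SLC7A5 and SLC1A5.

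The carriers of cationic amino acids, SLC7A1 and SLC7A3, both rose. SLC7A1 (CAT-1; chr13:29509410-29595688, minus strand, hg38), the widely expressed uptake route for arginine, lysine and ornithine, had 148, 156, 149 and 155 TPM in treated libraries, against 17.6, 22.5, 19.5 and 21.4 TPM in vehicle libraries. The lowest treated library was 6.59-fold above the highest vehicle library, and the fold change was 2.96 ± 0.068 (adjusted p = 1.16e-09). SLC7A3 (CAT-3; chrX:70925582-70931125, minus strand), a related carrier known from brain, had 10.5, 10.3, 8.98 and 7.91 TPM in treated libraries, against 0.164, 0.466, 0.415 and 0.345 TPM in vehicle libraries. Its vehicle values rest on only 21, 55, 47 and 42 reads. With a fold change of 4.84 ± 0.21 (adjusted p = 7.71e-08) it was the steepest rise of the 10, at rank 67 among all genes tested. In absolute terms SLC7A3 remained the lowest of the 10 in both groups.

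The 2 carriers of large neutral amino acids moved by very different amounts. SLC7A5 (LAT1; chr16:87830023-87869488, minus strand), which exchanges leucine, phenylalanine and other large neutral amino acids as a heterodimer with the glycoprotein SLC3A2, had 522, 495, 481 and 437 TPM in treated libraries, against 17.8, 27.6, 20.4 and 21.2 TPM in vehicle libraries. That is a fold change of 4.53 ± 0.14 (adjusted p = 7.87e-09), or 22.2 times the vehicle mean in TPM. SLC43A1 (LAT3; chr11:57484534-57515786, minus strand), a facilitative carrier for leucine and other branched-chain amino acids that needs no SLC3A2, had 33.3, 32.8, 28.5 and 25.4 TPM in treated libraries, against 11.5, 17.4, 15.3 and 16.3 TPM in vehicle libraries. Its fold change, 0.99 ± 0.12 (adjusted p = 4.90e-05), was the smallest of the 10. The TPM ratio of SLC7A5 to SLC43A1 was 15.1 to 17.2 in treated libraries and 1.31 to 1.58 in vehicle libraries, a log2 difference of 3.49 (exact two-sided permutation p = 0.0286, adjusted p = 0.0381 over 4 ratios). The raw p is the smallest that 70 assignments of 8 libraries allow. With 1 TPM added the difference was 3.48 and the raw permutation p stayed at 0.0286. The adjusted p became 0.0571, not called, because another of the 4 ratios lost its low p.

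The ASCT pair exchanges alanine, serine, cysteine and other small neutral amino acids, and SLC1A5 also carries glutamine. SLC1A4 (ASCT1; chr2:64988477-65023865, plus strand) had 138, 134, 132 and 136 TPM in treated libraries, against 20.2, 28.6, 24.8 and 25.4 TPM in vehicle libraries, a fold change of 2.67 ± 0.070 (adjusted p = 2.52e-09). SLC1A5 (ASCT2; chr19:46774883-46788594, minus strand) had 229, 219, 232 and 215 TPM in treated libraries, against 10.4, 19.8, 21.0 and 21.6 TPM in vehicle libraries. The vehicle library of differentiation 2 was the low one, at 16.2 CPM (reads scaled for library size with TMM factors), with the other vehicle libraries at 25.3 to 27.8 CPM. The fold change of SLC1A5 was 3.66 ± 0.17 (adjusted p = 1.11e-07). The order of the pair differed between groups, since SLC1A4 stood at 0.570 to 0.632 of SLC1A5 in treated libraries and at 1.18 to 1.94 of it in vehicle libraries. This ratio fell by 1.22 on the log2 scale (exact two-sided permutation p = 0.0286, adjusted p = 0.0381). With 1 TPM added the difference was -1.19 at the same raw p of 0.0286. It was then not called (adjusted p = 0.0571), because another of the ratios lost its low p.

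System A held the most mRNA of the classes in both groups and rose the least of them. SLC38A1 (SNAT1; chr12:46183063-46270017, minus strand), a main neuronal glutamine carrier, had 270, 289, 290 and 327 TPM in treated libraries, against 112, 138, 130 and 138 TPM in vehicle libraries (fold change 1.27 ± 0.073, adjusted p = 4.35e-07). SLC38A2 (SNAT2; chr12:46358189-46372867, minus strand), the carrier best known for being induced when amino acids are withdrawn, had 540, 566, 523 and 586 TPM in treated libraries, against 189, 251, 219 and 230 TPM in vehicle libraries (fold change 1.51 ± 0.069, adjusted p = 1.09e-07). Within the pair, SLC38A1 stood at 0.50 to 0.558 of SLC38A2 in treated libraries and at 0.552 to 0.599 of it in vehicle libraries. The log2 difference of this ratio, -0.14, did not pass the threshold (exact two-sided permutation p = 0.0857), but on CPM it was -0.24 and did (adjusted p = 0.0286).

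Ratios within the cationic pair could also be compared. SLC7A1 stood at 14.1 to 19.5 times SLC7A3 in treated libraries and at 47.0 to 108 times it in vehicle libraries, a log2 difference of -1.94 (exact two-sided permutation p = 0.0286, adjusted p = 0.0381). With 1 TPM added to every value the difference was -0.10 and was not called (adjusted p = 0.371), since all SLC7A3 values in vehicle cells are under 1 TPM.

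The carriers linked to transmitter clearance were low in both groups, and both rose. SLC6A9 (GlyT1; chr1:43991500-44031467, minus strand), a sodium- and chloride-coupled glycine transporter, had 29.3, 29.1, 25.7 and 22.9 TPM in treated libraries, against 6.84, 9.73, 7.15 and 7.55 TPM in vehicle libraries (fold change 1.82 ± 0.14, adjusted p = 2.42e-06). SLC1A3 (GLAST or EAAT1; chr5:36606355-36688334, plus strand), a glutamate and aspartate transporter typical of astroglia and radial glia, had 15.4, 15.7, 14.1 and 15.2 TPM in treated libraries, against 2.07, 2.32, 2.08 and 1.74 TPM in vehicle libraries (fold change 3.26 ± 0.12, adjusted p = 2.88e-08). Because SLC1A3 is a glial gene, the astroglial and radial glial markers were read beside it. Of 10 such markers 6 could be tested, none was called higher and 3 fell, including GJA1, the gap junction protein connexin 43 (-0.40 ± 0.073, adjusted p = 0.000966), and SLC1A2, the other main astroglial glutamate transporter (-0.75 ± 0.082, adjusted p = 3.02e-05). Among all genes tested, 27.7% were called higher and 30.2% lower. The summed level of the 10 markers was 167 to 207 TPM in treated libraries and 216 to 236 TPM in vehicle libraries. GFAP averaged 0.0045 TPM in treated libraries and was listed at 0 in every vehicle library, and AQP4 averaged 0.0128 TPM in treated and 0.0090 TPM in vehicle libraries.

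The summed mRNA of the 10 was 1923 ± 28.0 TPM in treated cells and 462 ± 54.9 TPM in vehicle cells (SD, n = 4 each), a 4.16-fold difference. By class, the sum for system L was 13.9-fold higher in treated cells, for ASCT 8.35-fold, for the cationic pair 7.83-fold, for SLC1A3 7.35-fold, for SLC6A9 3.42-fold and for system A 2.41-fold. The make-up of the sum differed accordingly. System A took 44.1% of it in treated cells and 76.2% in vehicle cells, and system L 26.7% in treated cells and 7.95% in vehicle cells. SLC7A5 alone took 25.1% in treated cells and 4.69% in vehicle cells.

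**Figure D2:**
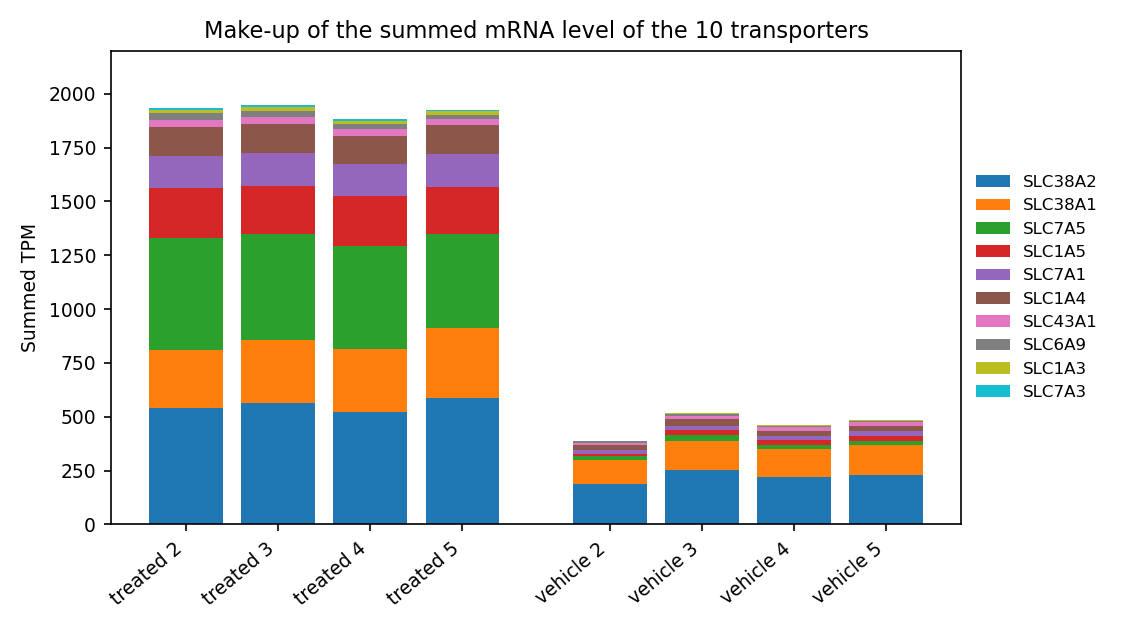
Summed TPM of the 10 transporters in each library, stacked by gene, with the 4 treated libraries left of the 4 vehicle libraries. The total is 1883 to 1948 TPM in treated libraries and 388 to 517 TPM in vehicle libraries, and the SLC7A5 band is much wider in the treated libraries.

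The order of levels in treated cells ran SLC38A2, SLC7A5, SLC38A1, SLC1A5, SLC7A1, SLC1A4, SLC43A1, SLC6A9, SLC1A3 and SLC7A3. Only SLC43A1 and SLC6A9 had overlapping ranges among neighbours in that order. In vehicle cells the order ran SLC38A2, SLC38A1, SLC1A4, SLC7A5, SLC7A1, SLC1A5, SLC43A1, SLC6A9, SLC1A3 and SLC7A3. There, 4 neighbouring steps overlapped, those from SLC1A4 down to SLC43A1, while each of SLC1A4, SLC7A5 and SLC7A1 lay above SLC43A1 in every library. In treated cells the same 5 spread over 25.4 to 522 TPM, against 10.4 to 28.6 TPM in vehicle cells. Within the groups, the vehicle library of differentiation 2 held the lowest TPM for 9 of the 10 genes and that of differentiation 3 the highest for 9 of them. On TMM-scaled CPM, the scale of the tests, the library of differentiation 2 was instead the highest vehicle library for SLC7A1 (82.0 CPM, others 71.7 to 80.9) and SLC38A1 (487 CPM, others 445 to 458). The treated library of differentiation 5 was the lowest treated library for SLC7A3, SLC7A5, SLC1A5, SLC6A9 and SLC43A1 and the highest for SLC38A1 and SLC38A2.

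SLC7A5 reaches the membrane only with SLC3A2, the heavy chain that it shares with 5 other light chains measured here (SLC7A6, SLC7A7, SLC7A8, SLC7A10 and SLC7A11). SLC3A2 had 1016, 974, 987 and 1122 TPM in treated libraries, against 44.2, 102, 81.5 and 83.3 TPM in vehicle libraries (fold change 3.67 ± 0.14, adjusted p = 3.81e-08). The 6 light chains summed to 671 ± 29.2 TPM in treated cells and 71.9 ± 8.25 TPM in vehicle cells. The heavy chain stood at 1.42 to 1.76 times that sum in treated libraries and at 0.739 to 1.33 times it in vehicle libraries. The make-up of the light chains differed between groups. SLC7A5 made up 72.0 ± 2.39% of their sum in treated cells and 30.2 ± 4.03% in vehicle cells. SLC7A6 (y+LAT2), which exchanges cationic for neutral amino acids, made up 6.08 ± 0.37% in treated cells and 63.7 ± 4.00% in vehicle cells, although its own level was 40.8 ± 1.26 TPM in treated and 45.8 ± 5.99 TPM in vehicle cells and its change was not called (-0.09 ± 0.061, adjusted p = 0.231). SLC7A11 (xCT), which takes up cystine for glutamate, made up 21.5 ± 2.09% in treated cells and 0.401 ± 0.134% in vehicle cells, with a fold change of 9.01 ± 0.22 (adjusted p = 1.86e-09). In vehicle libraries it was 0.258 to 0.572% of a sum of 59.8 to 77.8 TPM. Its fold change therefore rests on a low vehicle level, and its size is uncertain.

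The transcript tables were used to ask whether the mRNA of each gene came from the same transcripts in both groups. Of the 10 genes, 9 had more than 1 testable transcript, and 3 of these were called for a change of transcript usage, SLC38A2, SLC1A4 and SLC1A5, against 9.33% of 11754 genes tested (diffSpliceDGE, Simes adjusted p under 0.05). The division of reads among transcripts is itself an estimate, and its error is not in this test. The calls of SLC38A2 and SLC1A5 draw in part on minor transcripts whose limits are given below. SLC7A1 was not tested, since 1 transcript held 99.4% of its TPM in treated cells and 99.5% in vehicle cells.

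In SLC1A4 most of the added mRNA was assigned to the inner of its starts. SLC1A4-201, which starts at the inner site (position 64989401 of chromosome 2, GENCODE 29), had 128, 126, 122 and 127 TPM in treated libraries, against 14.4, 23.2, 19.8 and 21.5 TPM in vehicle libraries. SLC1A4-205, a coding transcript from the outer site (position 64988490), had 3.66, 2.52, 4.23 and 2.19 TPM in treated libraries, against 4.33, 4.23, 3.55 and 2.58 TPM in vehicle libraries, and the groups overlapped. As a share of the gene it was 2.34 ± 0.73% in treated cells and 15.2 ± 4.67% in vehicle cells, and its usage fell by 1.99 on the log2 scale relative to the gene (adjusted p = 0.000598). SLC1A4-204, a noncoding transcript also from the outer site, was higher in treated cells, at 4.02 ± 0.51 TPM against 0.981 ± 0.085 TPM in vehicle cells. Its usage change was not called (-0.44 on the log2 scale). The 3 transcripts of the outer site together had 7.17 ± 0.73 TPM in treated cells and 4.65 ± 0.85 TPM in vehicle cells. Their sum did not overlap, at 6.28 to 7.77 TPM in treated and 3.47 to 5.39 TPM in vehicle libraries, so the outer site was higher as well. The call for SLC1A4 held under all 10 alternatives run (largest adjusted p = 0.0081).

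SLC1A5 has transcripts from an outer site and from an innermost site. The main transcript, SLC1A5-203, starts at the outer site (position 46788594 of chromosome 19) and had 201, 192, 204 and 187 TPM in treated libraries, against 10.1, 19.1, 20.3 and 21.1 TPM in vehicle libraries. SLC1A5-205, a shorter coding transcript from the innermost site (position 46784905), within the first intron of SLC1A5-203, had 25.5, 23.8, 24.2 and 25.0 TPM in treated libraries, against 0.282, 0.389, 0.712 and 0.568 TPM in vehicle libraries. Only the 5′ part of its first exon is not shared with SLC1A5-203, so its level rests on the reads in that part. Its share of the gene was 11.01 ± 0.50% in treated cells and 2.67 ± 0.58% in vehicle cells (usage log2 change 1.44, adjusted p = 0.0043; 2.3% of all transcripts tested were called). SLC1A5-202, from the same innermost site, had 1.14 to 2.08 TPM in treated libraries and was listed at 0 in every vehicle library. It passed the read filter only through the treated libraries, so no test is given for it. It is nonetheless among the 4 transcripts behind the gene call, which is limited by that. The call for SLC1A5-205 was lost when any 1 treated library was left out (adjusted p = 0.0897 to 0.104), as was that for the gene (adjusted p = 0.0738 to 0.0867). In those runs SLC1A5-202 missed the read filter. For SLC38A2 the smallest transcript p belonged to SLC38A2-210, a minor noncoding transcript at 0.486, 0.248, 0.847 and 0.438 TPM in treated libraries, against 8.40, 1.28, 0.384 and 0.790 TPM in vehicle libraries. It rests on 4.05 to 16.1 reads in treated libraries and 6.68 to 167 reads in vehicle libraries. The 1 high vehicle library is that of differentiation 2, and the gene was called under 5 of 10 alternatives. Without that library SLC38A2-210 missed the read filter and was not tested. The gene was called there (adjusted p = 2.62e-05) with another transcript, SLC38A2-208, annotated for nonsense-mediated decay. SLC38A2-208 had 39.3 ± 7.45 TPM in treated and 8.78 ± 1.26 TPM in vehicle cells (usage adjusted p = 0.139 with all libraries and 1.08e-05 without that library). SLC38A2-210 also missed a filter of 50 reads, and the usual filter without treated differentiation 4 or vehicle differentiation 3 or 5. In those runs the gene was not called (Simes adjusted p = 0.138 to 0.515). SLC1A4-204, SLC1A4-205, SLC1A5-202 and SLC38A2-210 were singled out after their values were seen.

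**Figure D3:**
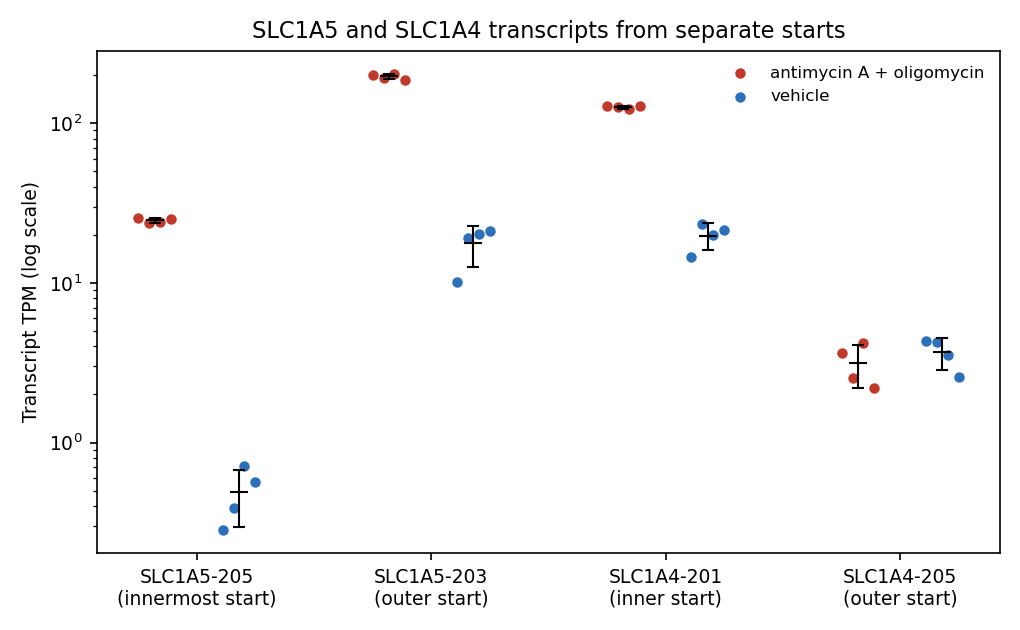
TPM of 4 transcripts of SLC1A5 and SLC1A4 in each library on a log scale, treated in red left of vehicle in blue, with mean ± SD (n = 4) in black. The treated and vehicle groups overlap for the outer-start transcript SLC1A4-205 and are apart for the other 3. The sum of all outer-start transcripts of SLC1A4, not drawn, was 6.28 to 7.77 TPM in treated and 3.47 to 5.39 TPM in vehicle libraries.

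Because starts differed in SLC1A4 and SLC1A5, the sequence before or up to each of them is shown, on the coding strand and 5′ to 3′ from RefSeq windows of GRCh38.p14. The windows were searched on both strands for TGATGNAA, the core of the amino acid response element that ATF4 binds with C/EBP partners, and for its form TGATGCAA, which is contained in the first motif; capitals mark a match. The stretches are chr2:64988229-64988476 and chr2:64989149-64989400 (plus strand) and chr19:46788595-46788844 and chr19:46784904-46785064 (minus strand).
SLC1A4 outer start: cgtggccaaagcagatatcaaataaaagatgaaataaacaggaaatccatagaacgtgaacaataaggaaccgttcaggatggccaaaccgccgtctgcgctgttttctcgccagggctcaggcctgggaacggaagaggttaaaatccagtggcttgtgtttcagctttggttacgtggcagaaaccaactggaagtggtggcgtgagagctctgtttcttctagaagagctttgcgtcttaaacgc
SLC1A4 inner start: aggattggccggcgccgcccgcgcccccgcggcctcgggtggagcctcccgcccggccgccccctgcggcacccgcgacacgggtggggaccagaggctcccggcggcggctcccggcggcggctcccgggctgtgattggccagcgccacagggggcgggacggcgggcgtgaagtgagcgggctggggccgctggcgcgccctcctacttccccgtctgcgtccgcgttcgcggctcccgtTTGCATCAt
SLC1A5 outer start: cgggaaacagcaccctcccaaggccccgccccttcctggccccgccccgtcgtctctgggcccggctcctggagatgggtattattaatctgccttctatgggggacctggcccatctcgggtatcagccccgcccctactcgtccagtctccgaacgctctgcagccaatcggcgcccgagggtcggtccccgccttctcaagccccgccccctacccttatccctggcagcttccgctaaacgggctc
SLC1A5 innermost start: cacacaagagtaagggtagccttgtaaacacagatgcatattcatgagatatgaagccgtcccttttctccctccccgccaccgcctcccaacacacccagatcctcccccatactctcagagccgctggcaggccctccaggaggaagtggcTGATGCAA
The inner SLC1A4 stretch holds TGATGCAA on the opposite strand, printed as TTGCATCA, 1 base from its end, and the innermost SLC1A5 stretch ends in TGATGCAA on the coding strand. The last 2 bases of that SLC1A5 match fall within the untranslated first exon part of SLC1A5-205. Neither outer window holds a match. These are matches of letters and not measured binding sites, and no match says only that these letters are not in this window.

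Across the 10 genes, 9 have a RefSeq window, 16 windows in all, and SLC7A3 has none. TGATGNAA was found in 5 of the 16 windows, belonging to 5 of the 9 genes, against 3.62% of all 35116 windows. TGATGCAA was found in 3 of the 16, against 0.866% of all windows. The other 3 matches lie in the windows of SLC1A3, SLC38A1 and SLC7A1, and each is given with 11 bases before and after it. They are at chr5:36596357-36596386 (plus strand), chr12:46266502-46266531 (minus strand) and chr13:29595663-29595692 (minus strand).
SLC1A3: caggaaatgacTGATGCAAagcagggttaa
SLC38A1: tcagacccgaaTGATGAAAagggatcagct
SLC7A1: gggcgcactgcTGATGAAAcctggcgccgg
The SLC1A3 match lies at -220 to -213 from its RefSeq start and the SLC38A1 match at -4 to 4 from its own, and GENCODE 29 has no transcript of these genes starting within 100 bases of either. Only 58.7 to 81.5% of the reads of SLC1A3 fell on transcripts of that release. The SLC7A1 match lies 8 to 15 bases into the first exon, in its untranslated part. CACGTG, the E-box that MYC and the TFE3 family bind, was found in 3 of the 16 windows, against 7.26% of all windows. They belong to SLC7A5, SLC43A1 and the second start of SLC1A5, a gene that also holds TGATGCAA. CACGTG was also in 4 of 29 windows (13.8%) of further plasma membrane carriers of the same families. It was in 2 of 24 windows (8.33%) of mainly internal membrane transporters. Among SLC6 carriers of GABA, monoamines, taurine and creatine it was in 1 of 7 windows (14.3%). The sites of the 2 system L genes are at chr16:87869619-87869648 and chr11:57515796-57515825, both on the minus strand.
SLC7A5: gccggacgacgCACGTGctccgagctgggc
SLC43A1: agcgggcgagtCACGTGcgcgtgaaactcg
The fold changes of SLC7A5 and SLC43A1 were 4.53 and 0.99. The window of SLC38A2, the gene with the highest level of the 10, holds neither motif.

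**Figure D4:**
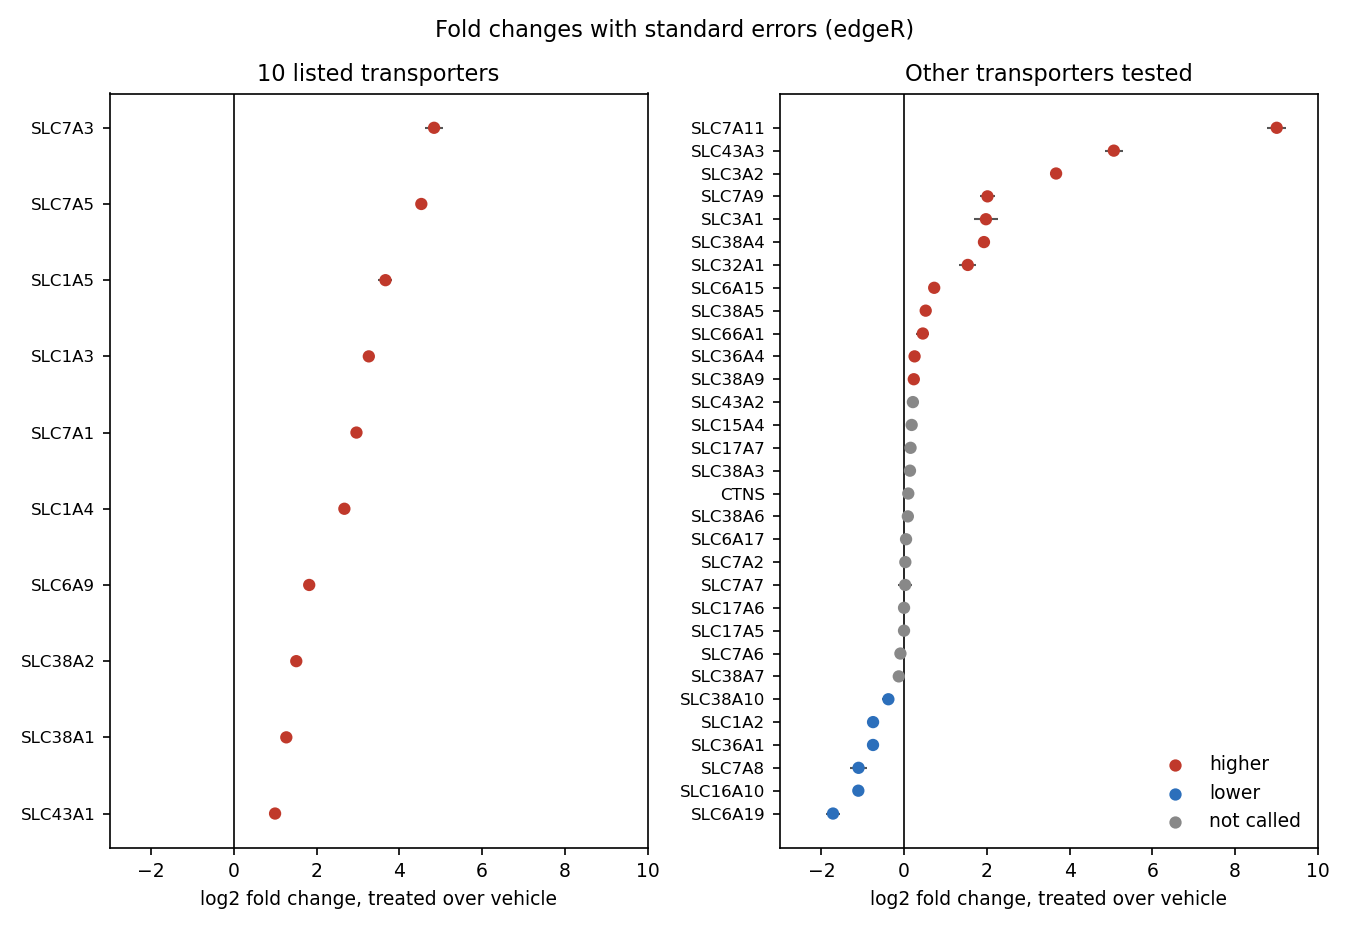
Log2 fold change of treated over vehicle with its standard error for the 10 transporters (left) and for 31 other tested transporters of the same families or of internal membranes (right); red marks called rises, blue called falls and grey no call. All 10 on the left lie at or above 0.99, and the right panel runs from -1.72 for SLC6A19 to 9.01 for SLC7A11. Levels of SLC6A19 were low in both groups, and that of SLC7A11 was low in vehicle cells.

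Other amino acid carriers were mixed. Of 26 further plasma membrane carriers of the same families and their heavy chains, 17 could be tested. Of these 7 rose and 4 fell, against 27.7% and 30.2% of all genes tested. The other 6 were not called, and the median was 0.14. Beside SLC7A11 and SLC3A2, SLC38A4, another system A carrier, rose by 1.93 ± 0.097 to 29.8 TPM in treated cells, against 8.26 TPM in vehicle cells (adjusted p = 1.90e-07). SLC16A10 (TAT1), which carries aromatic amino acids, had -1.11 ± 0.099 (adjusted p = 7.82e-06), and SLC6A19 (B0AT1), a neutral carrier best known from gut and kidney, had -1.72 ± 0.17 at levels under 1 TPM in both groups (adjusted p = 1.81e-05). Within families of the 10, SLC7A2, SLC43A2 and SLC38A3 were not called, and SLC1A2 fell.

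On a list mainly of transporters of lysosomes, synaptic vesicles and other internal membranes, 14 were tested, with a median of 0.13. Among them 5 rose and 2 fell, where 27.7% of all genes tested were called higher and 30.2% lower. The list also holds SLC43A3, a relative of SLC43A1 that carries purine nucleobases at the plasma membrane. It is among the called rises, at 1.17 TPM in treated cells and 0.0333 TPM in vehicle cells. At so low a vehicle level its fold change and test are not given. SLC32A1, the vesicular GABA and glycine carrier, rose by 1.54 ± 0.21 (adjusted p = 0.000132), and SLC36A4, a proton-independent carrier of proline and tryptophan, by 0.25 ± 0.062 (adjusted p = 0.0056). SLC36A1 (PAT1), a proton-coupled lysosomal exporter of small amino acids, fell by 0.75 on the log2 scale (SE 0.070, adjusted p = 1.10e-05). SLC38A10 also fell, by 0.38 (SE 0.15, adjusted p = 0.0447), a call that was lost without any of 3 single treated or of 3 single vehicle libraries. Of 7 tested SLC6 carriers of GABA, monoamines, taurine and creatine, 3 rose and none fell (all genes tested: 27.7% higher, 30.2% lower). They are SLC6A12 (BGT1; 1.96 ± 0.19, adjusted p = 1.19e-05), SLC6A13 (GAT2; 1.10 ± 0.17, adjusted p = 0.000345) and SLC6A6, the taurine transporter (0.42 ± 0.087, adjusted p = 0.0019). SLC6A3, the dopamine transporter, was not called, at 326 TPM in treated and 366 TPM in vehicle cells.

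A reference list of 8 genes of the amino acid response rose in full, with a median of 3.59 (27.7% of all genes tested were called higher). ATF4 itself had a fold change of 1.70 ± 0.093, at 1160 ± 33.1 TPM in treated cells and 371 ± 51.0 TPM in vehicle cells (adjusted p = 3.17e-07). PSAT1, an enzyme of serine synthesis, rose by 3.59 ± 0.088 (adjusted p = 1.75e-09), ASNS, asparagine synthetase, by 3.11 ± 0.080 (adjusted p = 2.38e-09), and CHAC1, which degrades glutathione, by 6.2 ± 0.21 (adjusted p = 1.53e-08). These genes are well-known ATF4 targets and were taken as such, so their rise is not independent evidence about the transporters. Of 6 genes known to control the turnover of carriers at the membrane, 1 rose and 3 fell. Over all genes tested, 27.7% were called higher and 30.2% lower. NEDD4, a ubiquitin ligase, rose by 1.46 ± 0.096 (adjusted p = 1.08e-06). The 3 that fell are ARRDC4 (-1.50 ± 0.14, adjusted p = 9.34e-06) and TXNIP (-1.96 ± 0.27, adjusted p = 0.000148), both arrestin-like proteins, and NEDD4L, another ubiquitin ligase (-0.29 ± 0.063, adjusted p = 0.0025).

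The genes whose pattern over the 8 libraries was closest to the mean scaled profile of the 10 were PCK2, CEBPB, CHAC1, UNC5B and AARS1. PCK2 is the mitochondrial form of phosphoenolpyruvate carboxykinase, CEBPB a C/EBP transcription factor, UNC5B a netrin receptor and AARS1 the alanyl-tRNA synthetase. Their likeness, as Pearson's r, was 0.9992 to 0.9997, a description that mostly reflects the shared gap between groups, since 202 of 11389 genes reached at least 0.99. Once the group means were removed, a different set came closest, namely INKA2, CDK5R1, HMOX1, ZNF20 and LINC00963. Their r was 0.971 to 0.992. They are the top of 11389 genes compared over 8 libraries, so this too is a description, and whether they vary with the 10 was not tested. Of these, HMOX1, heme oxygenase 1, rose by 4.47 and CDK5R1, an activator of the kinase CDK5, had -0.62.

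Markers of the neurons themselves moved both ways, with 3 higher and 5 lower among 11 tested. For these and the marker counts below, the shares over all genes tested were 27.7% higher and 30.2% lower. The summed level of the 12 listed neuron markers was lower in treated cells, at 3725 to 3866 TPM in treated libraries and 4018 to 5439 TPM in vehicle libraries. TH and RBFOX3, given next, are among the 3 higher, and DDC is among the 5 lower. TH, the dopamine-synthesising hydroxylase, rose by 1.04 ± 0.17 (adjusted p = 0.000393) and RBFOX3, the neuronal nuclear antigen NeuN, by 0.98 ± 0.083 (adjusted p = 5.56e-06), while DDC had -1.05 ± 0.20 (adjusted p = 0.0013) at under 1 TPM. LMX1A, a midbrain floor plate factor, was listed at 0 in all libraries, and SLC18A2, the vesicular monoamine carrier, averaged 0.0598 TPM in treated and 0.0615 TPM in vehicle cells, so not every defining marker of dopamine neurons was present. All 6 proliferation markers fell, with a summed level of 140 to 158 TPM in treated libraries and 193 to 302 TPM in vehicle libraries. Of 6 oligodendrocyte markers tested 1 rose and 3 fell (summed 29.8 to 37.3 TPM in treated and 40.9 to 65.7 TPM in vehicle libraries). Of 5 microglial and endothelial markers 2 rose and 1 fell (summed 2.96 to 4.43 TPM in treated and 4.21 to 12.4 TPM in vehicle libraries, with P2RY12 at 0 throughout). The part of these shifts in the transporter results was not tested.

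Some reads of the 10 genes could come from genes on the other strand, and no source used here says if reads were counted by strand. Across SLC1A5, an antisense RNA, ENSG00000275719, had a fold change of 3.33 ± 0.15 at 1.28 ± 0.067 CPM in treated cells and 0.126 ± 0.0085 CPM in vehicle cells, and is uncertain for that reason. Across SLC6A9, CCDC24 had -0.79 ± 0.13 (adjusted p = 0.000409) and the lincRNA ENSG00000230615 1.27 ± 0.14 (adjusted p = 3.50e-05), at no more than 2.44 CPM in any group mean. The SLC7A5 pseudogenes SLC7A5P1 and SLC7A5P2 had 0 reads in every library, so the deposited counts divided no SLC7A5 reads with them. The counts of SLC7A5 were still fractional in every library, such as 121362.48 in treated differentiation 2, while those of the other members were whole numbers. Whether its reads were divided with some other gene was not tested. In the authors' deposited table the log2 fold changes of the 10 genes lie within 0.12 of those given here.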

How the data were processed

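The authors deposited, per the file headers, a gene table and a transcript table per library with estimated counts and TPM; no source used here names the quantifier. Per the submitters' processing notes, HISAT2, SAMtools, StringTie and hg38 were used. For coding genes, a table by the authors holds a normalised signal of unnamed unit per library, a log2 fold change, a p-value and an FDR, per the file headers, and only its log2 fold change is quoted. Estimated counts were rounded, filtered with filterByExpr, TMM-scaled and tested with the edgeR 4.0.16 quasi-likelihood F-test in R 4.3.3, without covariates, over 19785 genes. The script was tested on simulated data. Transcripts entered diffSpliceDGE if 4 or more libraries held 10 or more reads. TPM ratios were compared by exact permutation over 70 assignments. Gene coordinates are from GENCODE 29. Named were the 10 members, their transcripts of at least 5% of the gene, SLC3A2, SLC7A11, ATF4, up to 3 rises and 3 falls per list, pattern neighbours at a mean CPM of at least 5, and opposite-strand genes, of which 1 is not reported here. Members and lists were chosen with earlier results of these data known. Alternatives were other scalings, filters, tools (DESeq2 1.42.0, limma 3.58.1), a replicate block and left-out libraries. Per-sample precision is limited by 4 libraries a group.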

Additional observations from a re-analysis of the deposited data

Results flagged for a closer look

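In groups of 4 libraries, 3 of 20 tested held a library apart from the rest (gap over range on log2 CPM above 0.83), where chance gives about 1 in 20. For SLC38A2, the treated library of differentiation 5 stood at 1161 CPM, with the other treated libraries at 1009 to 1032 CPM (gap over range 0.838). For SLC7A5, the vehicle library of differentiation 3 stood at 57.1 CPM, with the other vehicle libraries at 43.5 to 45.0 CPM (0.877). For SLC6A9, the same vehicle library stood at 12.5 CPM, with the others at 10.0 to 10.3 CPM (0.865). In all 3 cases the treated and vehicle ranges remained apart.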

How the results depend on the processing

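Each of the 10 genes kept its direction and its call under all 15 alternatives. The lowest log2 fold change was 2.95 for SLC7A3 and 2.40 for SLC1A3, both on log2(TPM + 1), which understates low genes. TPM also corrects for transcript length, and counts corrected for length gave 2.93 for SLC1A3, against 3.26 without. The 2 parts were not separated. With 1 TPM added, the ratio SLC7A1/SLC7A3 was -0.10 (adjusted p = 0.371). SLC7A5/SLC43A1 was then 3.48 and SLC1A4/SLC1A5 -1.19, each with an unchanged raw permutation p of 0.0286 (adjusted p = 0.0571 each). On CPM, SLC38A1/SLC38A2 was -0.24 (adjusted p = 0.0286). Same-numbered libraries did not deviate together (correlations -0.08 to 0.032), so the numbers were not taken as pairs. With the replicate block, sign flips left the 3 called ratios at -1.94, 3.49 and -1.22 with p = 0.125, the smallest that 4 pairs allow by exact permutation, and the edgeR replicate block called 5163 genes higher and 5601 lower. Rises on the list of mainly internal membrane transporters numbered 5, but 2 with library totals only and 3 with limma. Falls there numbered 2, but 1 with the replicate block and 1 to 3 with single libraries left out. Falls among SLC6 carriers numbered 0, but 1 with library totals only, 2 with no filter and 0 to 1 with single libraries left out. Without 1 library, 619 to 1594 genes and 1 to 4 of the 10 were called for transcript usage, against 1097 and 3; the cause was not tested. The vehicle level of SLC7A3, at 21 to 55 reads, is limited by depth.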
